A study of Rattus norvegicus with 18 samples.

Results

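The comparison described here set rat cortical neuroglial cultures labelled Glutamate_BPC against cultures labelled Memantine, with 3 libraries in each group and 6 of the 18 libraries of the series in all. The members were chosen by sample title, and every gene of the count tables was compared. The cultures came from the cerebral cortex of newborn Wistar rats and held neurons together with glial cells. They were used on day 10 in vitro, and RNA was taken 4 h after the model of excitotoxicity. Per the study's methods, Memantine cultures received 100 µM memantine together with 100 µM glutamate, although their label does not name glutamate. Glutamate_BPC cultures received material secreted by glial progenitor cells 1 day before 100 µM glutamate, and no memantine. Secreted preparations in the series comprised extracellular vesicles, a total secretome and a protein fraction of 3 to 100 kDa. The labels do not settle which of the latter 2 the name Glutamate_BPC stands for, so the label is used as given. Both groups therefore shared glutamate and differed in agent and in the time at which it was added. The study's general statement on statistics speaks of cultures of unrelated cells, but the labels do not say which culture each library came from. The p-values therefore measure the spread between libraries, pooled over the 6 groups of all 18 libraries. Part of this spread may be technical.

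Glutamate excitotoxicity is the damage that neurons suffer when excess glutamate keeps its receptors open. The NMDA receptor, a channel assembled from GluN1 and GluN2 or GluN3 subunits, lets calcium into the neuron, and sustained calcium entry leads to cell death. Memantine blocks the open pore of this receptor and so acts at the entry step. Secreted proteins of glial progenitor cells can act from outside through receptors on neurons and glia. Vesicles, in the study's account, attach to the cell, are taken up and then release their content. Both can also bring growth factors and matrix proteins to the culture.

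Libraries held between 10757114 and 13854110 estimated counts. Counts on ribosomal RNA rows made up 13.9, 8.15 and 20.1% of Glutamate_BPC 1, 2 and 3, and 13.9, 4.16 and 8.82% of Memantine 1, 2 and 3. The libraries of the Memantine group did not lie together. Across genes, log2 CPM (counts scaled to library size by TMM) of Memantine 3 correlated with Glutamate_BPC 1, 2 and 3 at r = 0.971, 0.953 and 0.977, and with Memantine 1 and 2 at r = 0.894 and 0.725. Memantine 2 correlated with every other library at r = 0.818 or less. Values without Memantine 3 are therefore given beside the main results. The numbers of the libraries also paired the groups, since libraries with the same number deviated together from their group means. Counts from the paired fit, with the replicate number as a block, are given for some lists only. Elsewhere counts, fold changes and medians are from the fit without the block and can differ with it.

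**Figure D1:**
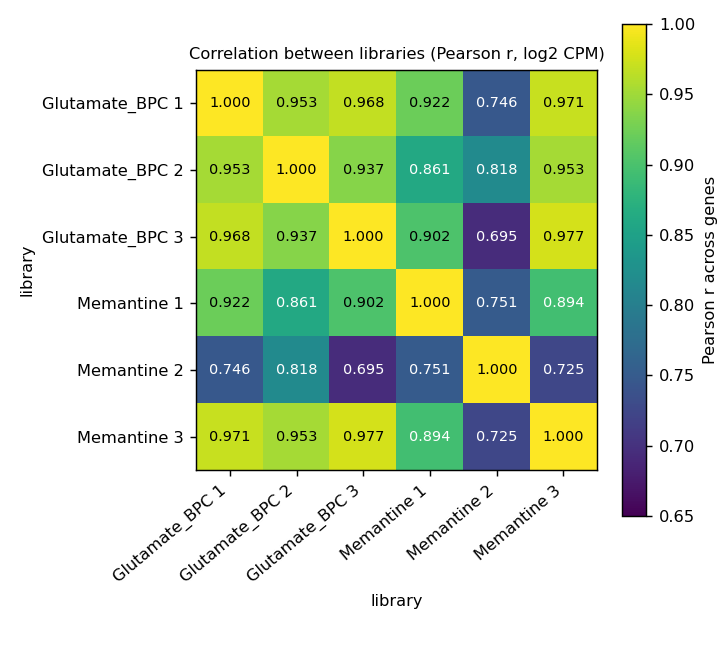
Pearson correlation across genes of log2 CPM between each pair of the 6 libraries, with the value written in each cell and in its colour. Memantine 3 reached 0.971, 0.953 and 0.977 with the Glutamate_BPC libraries, and Memantine 2 had the lowest values.

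Among 7 lists of cell type markers, the median log2 fold change lay furthest from 0 for neurons and microglia. Fibroblast and mural markers followed at 0.86 over the 7 of 13 that had enough counts to be tested, and 0 markers passed adjustment in any list. The summed level of 16 neuron markers was 2437, 1591 and 1843 CPM in Glutamate_BPC 1, 2 and 3, and 7082, 3771 and 1539 CPM in Memantine 1, 2 and 3. Memantine 1 and 2 thus lay above every Glutamate_BPC library and Memantine 3 lay below them all. The sum ranged from 3781 to 5953 CPM in Control cultures and from 1320 to 2667 CPM in Glutamate cultures. All 16 neuron markers had a negative log2 fold change, with a median of -1.21. The median was -1.65 without Memantine 3 and -0.62 without Memantine 1. Bulk RNA cannot tell fewer cells of a type from less RNA per cell.

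Markers of microglia, the phagocytes of the brain, summed to 150.6, 419.6 and 624.7 CPM in Glutamate_BPC and to 40.6, 55.8 and 538.5 CPM in Memantine. All 13 had a positive fold change (median 1.03), and none met the looser criterion described below (p under 0.05 before adjustment and a fold change over 1.5). With the block 9 of the 13 met it, all higher, at a median of 1.46, while 6.20% of all genes did so. Without Memantine 3 the median was 2.46, and without Glutamate_BPC 1 it was 1.39. It was 0.65 without Glutamate_BPC 2 and 0.74 without Glutamate_BPC 3. Without Memantine 1 it was 0.77 and without Memantine 2 it was 0.72. Tyrobp, a signalling adaptor of microglial receptors, was at 17.1, 33.4 and 75.5 CPM against 3.44, 1.56 and 43.9 CPM. Trem2, a lipid receptor that pairs with it, was at 7.97, 21.9 and 53.7 CPM against 2.79, 1.83 and 30.8 CPM. Each of these was higher in Glutamate_BPC in all 3 pairs, and the ranges of the groups overlapped through Memantine 3.

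Astrocyte markers summed to between 8749 and 14780 CPM in Glutamate_BPC and between 4240 and 12350 CPM in Memantine. Gfap, the intermediate filament of astrocytes, was at 5056, 5105 and 9940 CPM in Glutamate_BPC and at 2876, 1467 and 6530 CPM in Memantine, with a log2 fold change of 0.89 (SE 0.67) that did not pass. Fibroblast and mural markers summed to between 340.2 and 643.7 CPM in Glutamate_BPC and between 86.7 and 415.6 CPM in Memantine. Between 2 and 5 of these 13 genes were at 0 in each library. Endothelial markers were near the floor in both groups, at no more than 12.6 CPM in sum over 10 genes, and up to 5 of them were at 0 in a library. Oligodendrocyte lineage markers spanned 1222 to 1714 CPM in Glutamate_BPC and 742.7 to 1579 CPM in Memantine. Ependymal markers summed to at most 29.4 CPM. The labelled neuroglial culture thus had its neuron, astrocyte and microglia markers above 0 in all 6 libraries.

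**Figure D2:**
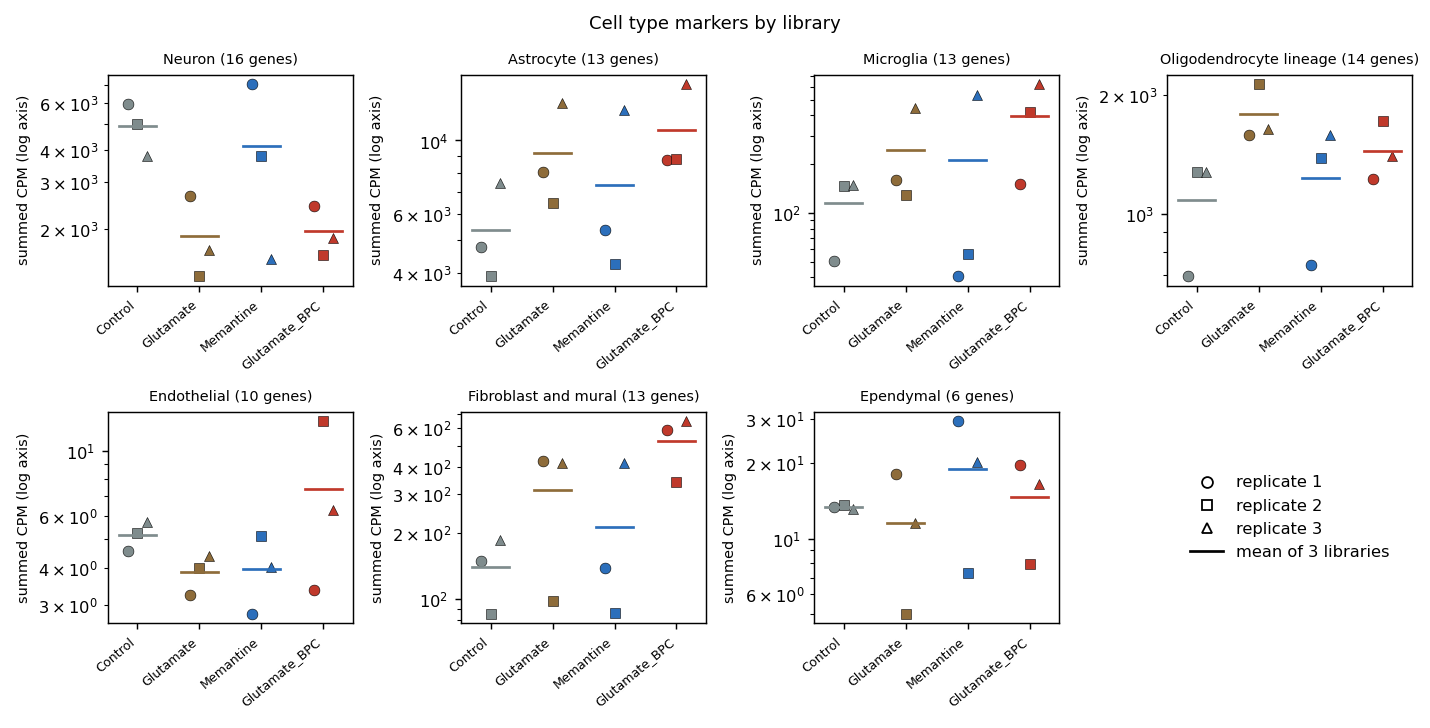
Summed CPM of the markers of 7 cell types (log axes) in the 3 libraries of Control, Glutamate, Memantine and Glutamate_BPC, with symbols for the replicate number and a line at the group mean. For neurons, Memantine 1 and 2 stood at 7082 and 3771 CPM and Memantine 3 at 1539 CPM, beside 1591 to 2437 CPM in Glutamate_BPC.

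Of 14398 genes tested with the quasi-likelihood test of edgeR, 0 passed Benjamini-Hochberg adjustment at 0.05 (0%), with a minimum adjusted p of 0.4966. Before adjustment, 1168 genes lay under 0.05. In this set, 1163 also had a fold change above 1.5, which served as a second, looser criterion. Lower levels in Glutamate_BPC made up most of them, with 1038 genes lower (7.21%) and 125 higher (0.868%). With the replicate number as a block, the edgeR test again called 0 genes at a smallest adjusted p of 0.09139, and the looser criterion was met by 1400 lower (9.72%) and 892 higher (6.20%) genes. The likelihood-ratio test of edgeR called 5 genes, namely Ccn2, Gja5, Adra1d and Hk3 as higher and Epha4 as lower. DESeq2 called 14 genes, 4 higher and 10 lower, which included those 5. Every Glutamate_BPC library was above every Memantine library in CPM for 381 genes (2.65%) and below for 350 (2.43%). All 3 pairs were higher for 2329 genes (16.2%) and all 3 lower for 2109 (14.6%).

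Leaving out Memantine 3 changed this outcome. The quasi-likelihood test then called 399 of 14650 genes, 88 higher (0.601%) and 311 lower (2.12%), at a smallest adjusted p of 0.009628. With the block as well, 2024 genes were called, 927 higher and 1097 lower. Leaving out any other library of the 2 groups left 0 calls. Calls made without Memantine 3 compare 3 libraries with the remaining 2, and they are given below as such. That library was left out because it resembled Glutamate_BPC in these same data. The calls are therefore a description and no independent support for a gene or list.

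The 3 genes with the smallest p among the named genes higher in Glutamate_BPC were Ccn2, Gja5 and Ccn1. Ccn2, a matricellular protein also known as connective tissue growth factor, had the smallest p of all genes higher in Glutamate_BPC. It was at 38.7, 113 and 21.6 CPM in Glutamate_BPC (57.7 ± 48.6, SD, n = 3) and at 3.76, 5.0 and 3.74 CPM in Memantine (4.17 ± 0.723). The groups did not overlap, while Glutamate cultures at 27.0, 12.3 and 4.09 CPM reached into the range of each. The log2 fold change of Ccn2 was 3.79 (SE 0.69, adjusted p = 0.4966 in the edgeR quasi-likelihood test). The likelihood-ratio test of edgeR gave Ccn2 an adjusted p of 0.001547 and DESeq2 one of 8.84e-05. Without Memantine 3 its log2 fold change was 3.74, at an edgeR adjusted p of 0.0316.

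Ccn1, a sister protein of the same family, was at 186, 200.4 and 87.97 CPM in Glutamate_BPC and at 17.9, 7.78 and 46.6 CPM in Memantine. Its groups did not overlap, and the log2 fold change of 2.71 (SE 0.75) was larger without Memantine 3, at 3.65. Glutamate cultures held 211, 49.5 and 36.9 CPM of Ccn1 and Control cultures 14.3, 3.98 and 7.05 CPM. Gja5, which encodes the gap junction protein connexin 40, was at 8.06, 10.0 and 3.15 CPM against 0.752, 0.389 and 0.862 CPM (log2 fold change 3.41, SE 0.67). Every Glutamate_BPC library was above every Memantine library in Gja5, and the low level of this gene limits its precision.

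Ccn2 and Ccn1 are textbook targets of YAP, a coactivator that binds DNA through TEAD factors, and the TEAD half-site reads GGAATG. The 250 bases before the RefSeq start of the 3 genes just described are shown to compare them for this motif, with matches on either strand in capitals (5′ to 3′ on the strand of the gene, assembly GRCr8). The motif was chosen after the values of these genes were known.
Ccn2, chr1:22624615-22624864, minus strand: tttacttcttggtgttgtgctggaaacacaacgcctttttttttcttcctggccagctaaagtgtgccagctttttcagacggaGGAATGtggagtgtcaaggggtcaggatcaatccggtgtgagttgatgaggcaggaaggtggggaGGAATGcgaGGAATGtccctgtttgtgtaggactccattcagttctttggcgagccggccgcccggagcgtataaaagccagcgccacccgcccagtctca
Ccn1, chr2:237225690-237225939, minus strand: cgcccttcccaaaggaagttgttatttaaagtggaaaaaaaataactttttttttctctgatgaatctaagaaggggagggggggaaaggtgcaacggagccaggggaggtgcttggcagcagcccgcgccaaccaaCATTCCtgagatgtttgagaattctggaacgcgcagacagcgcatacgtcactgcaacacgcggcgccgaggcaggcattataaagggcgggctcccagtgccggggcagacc
Gja5, chr2:187290977-187291226, plus strand: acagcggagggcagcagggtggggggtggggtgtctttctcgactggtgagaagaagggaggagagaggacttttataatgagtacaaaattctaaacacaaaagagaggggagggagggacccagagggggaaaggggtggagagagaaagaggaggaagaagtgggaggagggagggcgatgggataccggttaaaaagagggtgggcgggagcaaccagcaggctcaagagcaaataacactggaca

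The promoter of Ccn2 held 3 matches, which began 166, 101 and 92 bases before the start, and that of Ccn1 held 1, on the other strand, 113 bases before the start. The window of Gja5 held none. Of 33469 rat promoters of the same length, 12.1% held the motif. Among the 10 genes with the smallest p that were higher in Glutamate_BPC, 8 had a promoter in the table and 2 of these held the motif. These 2 were Ccn2 and Ccn1, the genes for which the motif was chosen, so the count says nothing about the higher genes as a set. None of 9 promoters of the 10 genes that were lower held it. The AP-1 site TGANTCA (6.34% of all promoters) and the cyclic AMP response element TGACGTCA (1.59%) were in none of these 17 promoters. A match is a description of the sequence and not of binding.

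Matrix genes were also among the named genes. Fbln2, an extracellular matrix fibulin, was at 552, 358 and 721 CPM in Glutamate_BPC and at 175, 79.0 and 135 CPM in Memantine, with no overlap (log2 fold change 2.07, SE 0.65). Fbln5, which organises elastic fibres, was at 43.9, 66.1 and 31.9 CPM against 12, 20.5 and 22.4 CPM (1.368, SE 0.46). Mfap4, a microfibril-associated glycoprotein, was at 77.6, 30.7 and 144 CPM against 13.2, 2.06 and 34.4 CPM and was higher in all 3 pairs. In Memantine cultures, the levels of Fbln2 and Fbln5 were close to those of Glutamate cultures, which averaged 187 ± 102 and 21.9 ± 7.13 CPM (SD, n = 3).

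Among the 27 matricellular, fibulin and elastic fibre genes tested, 19 had a positive and 8 a negative fold change, at a median of 0.54 against -0.10 over all genes. The looser criterion was met by 5 higher and 1 lower gene, and with the block by 10 higher and 1 lower. In 14 of the 27, all 3 pairs were higher. The median was 1.26 without Memantine 3, where 2 genes were called higher. Collagen chains stood at a median of 0.06, and none of 19 met the looser criterion, while 1 lower gene did with the block. Col1a1, a chain of fibrillar collagen, was at 3.71, 2.42 and 4.23 CPM against 1.72, 1.11 and 2.23 CPM. Matrix metalloproteinases and their inhibitors had a median of -0.07, and 0 of 16 met the looser criterion. With the block 2 higher genes and 1 lower gene met it. Over all genes 0.868% were higher and 7.21% lower at the criterion, and 6.20% and 9.72% with the block. Timp1, which inhibits metalloproteinases, was at 352, 200 and 211 CPM in Glutamate_BPC and at 202, 12.1 and 173 CPM in Memantine (0.98, SE 0.92). It was higher in all 3 pairs, although Memantine 1 overlapped Glutamate_BPC.

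The remaining genes with the smallest p and no overlap were of mixed function. Fxyd5, a regulator of the sodium pump, was at 7.52, 20.4 and 29.2 CPM against 1.18, 0.556 and 5.46 CPM (2.98, SE 0.87). Lsp1, an actin-binding protein of leukocytes, was at 4.26, 9.40 and 8.46 CPM against 1.29, 0.222 and 2.08 CPM. Cox4i2, an oxygen-responsive isoform of a cytochrome c oxidase subunit, was at 5.25, 17.5 and 4.88 CPM against 1.72, 0.945 and 1.58 CPM. These 3 were at low level throughout. Pmel, a fibril protein of pigment cells, had a log2 fold change of 1.25 (SE 0.37), Btg3, an antiproliferative protein, of 1.30 (SE 0.42) and Fam89a of 1.41 (SE 0.45). Kdelr3, a receptor that retrieves proteins to the endoplasmic reticulum, was among the 5 higher genes with the smallest p in the paired fit and had a log2 fold change of 1.69 there.

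**Figure D3:**
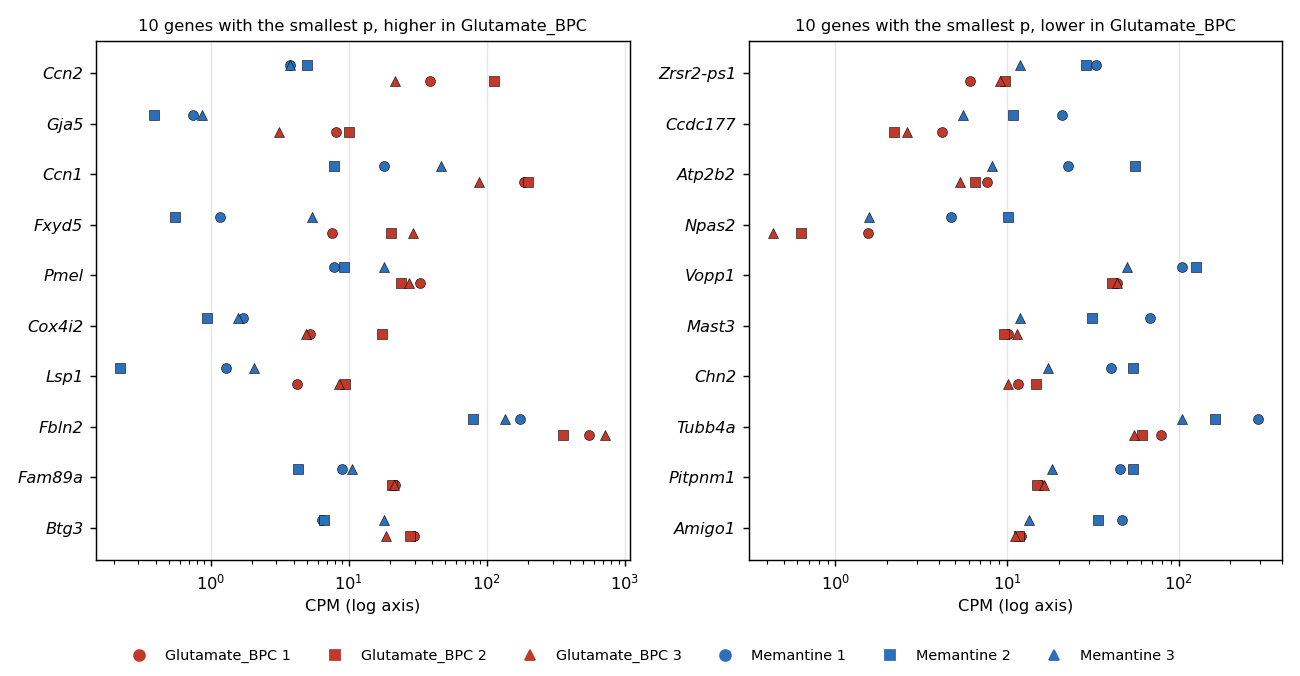
CPM (log axes) of the 10 genes higher and the 10 genes lower in Glutamate_BPC with the smallest p among genes whose groups did not overlap, 1 point per library. Ccn2 lay at 21.6 to 113 CPM in Glutamate_BPC and at 3.74 to 5.0 CPM in Memantine, and in the lower genes Memantine 3 lay nearest to Glutamate_BPC.

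The 10 lower genes with the smallest p included a calcium pump, a tubulin and several signalling proteins. Atp2b2, a plasma membrane pump that removes calcium from neurons, was at 7.61, 6.51 and 5.32 CPM in Glutamate_BPC and at 22.6, 56.0 and 8.19 CPM in Memantine (log2 fold change -2.16, SE 0.56). Tubb4a, a neural beta tubulin, was at 78.5, 61.2 and 54.9 CPM against 291, 164 and 104 CPM (-1.52, SE 0.44). Chn2, a chimaerin that inactivates Rac, was at 11.6, 14.8 and 10.2 CPM against 40.5, 54.1 and 17.3 CPM (-1.61, SE 0.47). In each of the 3, Memantine 3 was the Memantine library nearest to Glutamate_BPC.

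Amigo1, an adhesion protein that associates with potassium channels, had a log2 fold change of -1.43 (SE 0.43). That of Npas2, a transcription factor of the circadian clock, was -2.65 (SE 0.73). Mast3, a microtubule-associated kinase, stood at -1.83 (SE 0.53), and Pitpnm1, a phosphatidylinositol transfer protein, at -1.33 (SE 0.40). Ccdc177 stood at -2.05 (SE 0.51) and Vopp1 at -1.13 (SE 0.31). Zrsr2-ps1, listed as a pseudogene, stood at -1.56 (SE 0.37) and is uncertain because a pseudogene can share reads with its parent. All 10 lower genes, which were picked from these same libraries, were also called without Memantine 3. Of the 10 higher genes, Ccn2, Gja5, Ccn1, Fxyd5, Pmel and Btg3 were called there, and Cox4i2, Lsp1, Fbln2 and Fam89a were not.

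Epha4, an ephrin receptor of growing axons, was at 11.5, 13.4 and 10.1 CPM in Glutamate_BPC and at 81.7, 176 and 13.2 CPM in Memantine. Its groups overlapped by the single library Memantine 3, and its log2 fold change was -2.95 (SE 0.65), and -3.43 without that library at an edgeR adjusted p of 0.009628. Glutamate cultures averaged 23.1 ± 7.30 CPM and Control cultures 101 ± 55.3 CPM (SD, n = 3). Pnma8c was at 11.2, 9.63 and 9.65 CPM against 51.3, 51.9 and 9.77 CPM, the same arrangement.

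Receptors for glutamate, the transmitter that both groups received in excess, were lower in Glutamate_BPC in most cases. Grin1, the obligatory subunit of the NMDA receptor and so of memantine's target, was at 32.4, 17.4 and 24.7 CPM in Glutamate_BPC and at 197, 109 and 22.6 CPM in Memantine (log2 fold change -2.14, SE 0.62). Grin2b, a GluN2 subunit prominent in young neurons, was at 10.8, 6.74 and 7.16 CPM against 38.8, 62.3 and 3.38 CPM (-2.08, SE 0.74). In both genes, Memantine 1 and 2 lay above and Memantine 3 within or below the range of Glutamate_BPC. Grin2a was near its floor, at 0.217 to 0.362 CPM against 1.29, 5.61 and 0 CPM.

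Grin2c, a GluN2 subunit that glia also express, went the other way, at 2.45, 2.19 and 2.28 CPM against 0.644, 0.833 and 1.15 CPM, with no overlap (1.38, SE 0.59). The list of NMDA receptor genes held 7 subunits and Grina, a protein named for its association with the receptor that is not a subunit, and Grina stood at -0.29. Over these 8 genes, 6 fold changes were negative and 2 positive, at a median of -1.63, and 3 lower genes and 1 higher gene met the looser criterion. The median was -0.71 without Memantine 2 and -0.17 in the paired fit of the 6 libraries alone. Without Memantine 3 it was -2.11, and 2 were called lower.

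AMPA, kainate and metabotropic receptors had 23 of 23 fold changes below 0, at a median of -1.22, and 8 met the looser criterion. The median was -0.68 without Memantine 2, and 2 genes were called lower without Memantine 3. Gria1, an AMPA receptor subunit, was at 4.8, 3.29 and 3.47 CPM against 15.7, 118 and 1.22 CPM (-3.55, SE 1.18). Memantine 2 set much of this value. Shisa9, an auxiliary protein of AMPA receptors, was at 3.62, 3.57 and 4.34 CPM against 9.99, 15.2 and 6.18 CPM. Grm2, a presynaptic metabotropic receptor, was at 0.815, 0.288 and 0.325 CPM against 1.61, 2.17 and 1.44 CPM. The groups did not overlap for these last genes. Grik2, a kainate receptor subunit, was at 14.8, 13 and 12.6 CPM against 37.4, 40.7 and 13.3 CPM.

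Of 12 genes of glutamate uptake and the glutamine cycle, 2 met the looser criterion. They were Slc17a7 and Slc17a6, which load glutamate into vesicles. Slc17a7 was at 19.5, 8.24 and 8.89 CPM against 104, 80.3 and 8.26 CPM (-2.40, SE 0.83). Slc17a6 was at 3.17, 2.31 and 2.17 CPM against 12.2, 18.1 and 1.365 CPM (-2.05, SE 0.78).

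Genes of GABA transmission were lower in the same libraries. All 19 had negative fold changes, at a median of -1.75, and 11 met the looser criterion. Without Memantine 2 this median was -0.16. Without Memantine 3 it was -2.195, and 2 genes were called lower. Gabbr2, a subunit of the GABA-B receptor, was at 14.4, 9.80 and 6.83 CPM against 51.9, 104 and 9.27 CPM (-2.41, SE 0.68). Slc32a1, the vesicular GABA transporter, was at 11.1, 6.28 and 9.0 CPM against 23.9, 30.4 and 8.41 CPM. Gad2, which makes GABA, stood at -1.75 (SE 0.64), and Gabra2, a GABA-A receptor subunit, at -3.31 (SE 1.26), a value for which Memantine 2 at 53.1 CPM stood far above the other 5 libraries.

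Release and scaffold genes followed. Of 32 synaptic vesicle and SNARE genes, 32 had a negative fold change (median -1.59) and 16 met the looser criterion. The median was -1.01 without Memantine 2, and 11 were called lower without Memantine 3. Bsn, a scaffold of the presynaptic active zone, was at 1.27, 1.38 and 0.868 CPM against 6.23, 28.3 and 1.29 CPM. Cplx2, a regulator of fusion, was at 11.8, 15.3 and 18 CPM against 53.3, 118 and 16.5 CPM. Syn2 stood at -2.09 (SE 0.62) and Sv2b at -2.52 (SE 0.76). Snap25, a SNARE protein, was at 21.8, 45.1 and 9.87 CPM against 33.0, 129 and 14.1 CPM and was lower in each pair, with a log2 fold change of -1.20 (SE 0.80) that did not meet the criterion.

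Of 30 postsynaptic density genes, 28 had a negative fold change (median -1.26) and 11 met the looser criterion. The median was -0.65 without Memantine 2, and 8 were called lower without Memantine 3. Shank2, a scaffold of the postsynaptic density, was at 8.42, 7.44 and 6.29 CPM against 26.4, 97.5 and 7.98 CPM (-2.57, SE 0.71). Camk2b, a subunit of a calcium-dependent kinase, was at 131, 94.3 and 89.2 CPM against 528, 426 and 79.0 CPM (-1.71, SE 0.53).

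Ion channels were similarly placed. Voltage-gated calcium and sodium channels had 21 of 23 negative fold changes (median -1.38), and 13 met the looser criterion. The median was -0.68 without Memantine 2, and 3 were called lower without Memantine 3. Scn3b, an auxiliary sodium channel subunit, was at 24.6, 21.6 and 22.6 CPM against 134, 106.2 and 24.6 CPM (-1.94, SE 0.47). Scn2b, another such subunit, was at 15, 12.3 and 18.7 CPM against 58.6, 40.3 and 16.3 CPM. Potassium channels had 32 of 32 negative fold changes (median -1.62), and 18 met the looser criterion. The median was -0.955 without Memantine 2, and 7 were called lower without Memantine 3. Kcna6, a delayed rectifier, was at 9.60, 5.59 and 6.29 CPM against 67.7, 35.6 and 6.04 CPM (-2.34, SE 0.62). Kcnj6, an inward rectifier opened by G proteins, was at 4.44, 3.40 and 4.01 CPM against 33.8, 55.1 and 3.02 CPM. Kcnq3 stood at -3.62 (SE 1.07).

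Calcium pumps, exchangers and release channels had 21 of 23 negative fold changes (median -0.96), and 5 met the looser criterion, 9 with the block. The median was -0.44 without Memantine 2, and 5 were called lower without Memantine 3. Besides Atp2b2, the pump Atp2b4 was at 15.8, 19.3 and 23.1 CPM against 97.2, 170.4 and 20.3 CPM (-2.31, SE 0.59). Orai2, a channel of store-operated calcium entry, was at 8.33, 6.46 and 5.53 CPM against 42.1, 36.1 and 4.96 CPM. Slc24a4, a sodium-calcium exchanger, was at 0.634, 0.865 and 0.759 CPM against 4.08, 7.22 and 1.94 CPM, with no overlap.

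**Figure D4:**
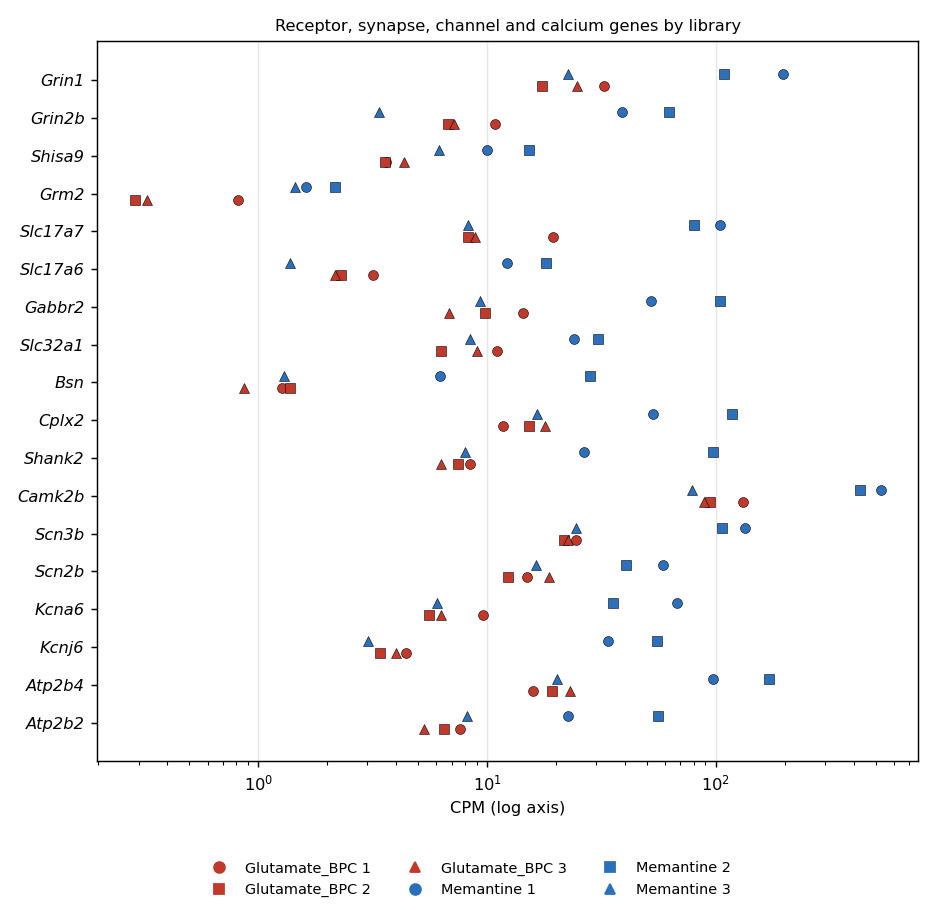
CPM (log axis) of 18 genes, the 2 with the smallest p in each of 9 lists of receptors, synapse genes, channels and calcium transporters, 1 point per library. Memantine 1 and 2 lay above the Glutamate_BPC libraries throughout, while Memantine 3 lay among or near them, as for Grin1 at 22.6 CPM beside 17.4 to 32.4 CPM.

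Differences of the paired libraries located these neuronal values. For the GABA genes the median log2 difference was -0.79 between the libraries numbered 1, -2.64 between those numbered 2 and -0.02 between those numbered 3. For the synaptic vesicle and SNARE genes these medians were -1.29, -2.22 and 0.20, and for potassium channels -1.36, -2.06 and 0.02. The medians of these lists were thus low in 2 pairs and near 0 in the third. The summed neuron markers given above differed between the same libraries, and their part in the lists was not tested. With the block the fitted medians were -1.39 for GABA genes, -1.28 for synaptic vesicle and SNARE genes and -1.44 for potassium channels. They were -0.98 for postsynaptic density genes, -0.20 for glutamate uptake genes and -1.04 for neuron markers. Each was smaller in size than without the block.

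Both groups were also set against cultures with glutamate alone and against untreated cultures, comparisons that share these libraries. The median log2 fold change of the synaptic vesicle and SNARE genes was -0.22 for Glutamate_BPC against Glutamate and 1.63 for Memantine against Glutamate. Against Control these medians were -1.51 and 0.09. For the NMDA receptor subunits they were -0.13 and 1.01 against Glutamate, and -1.13 and 0.34 against Control. For the matricellular, fibulin and elastic fibre genes, they were 0.63 for Glutamate_BPC and -0.19 for Memantine against Glutamate, and 1.20 and 0.35 against Control.

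**Figure D5:**
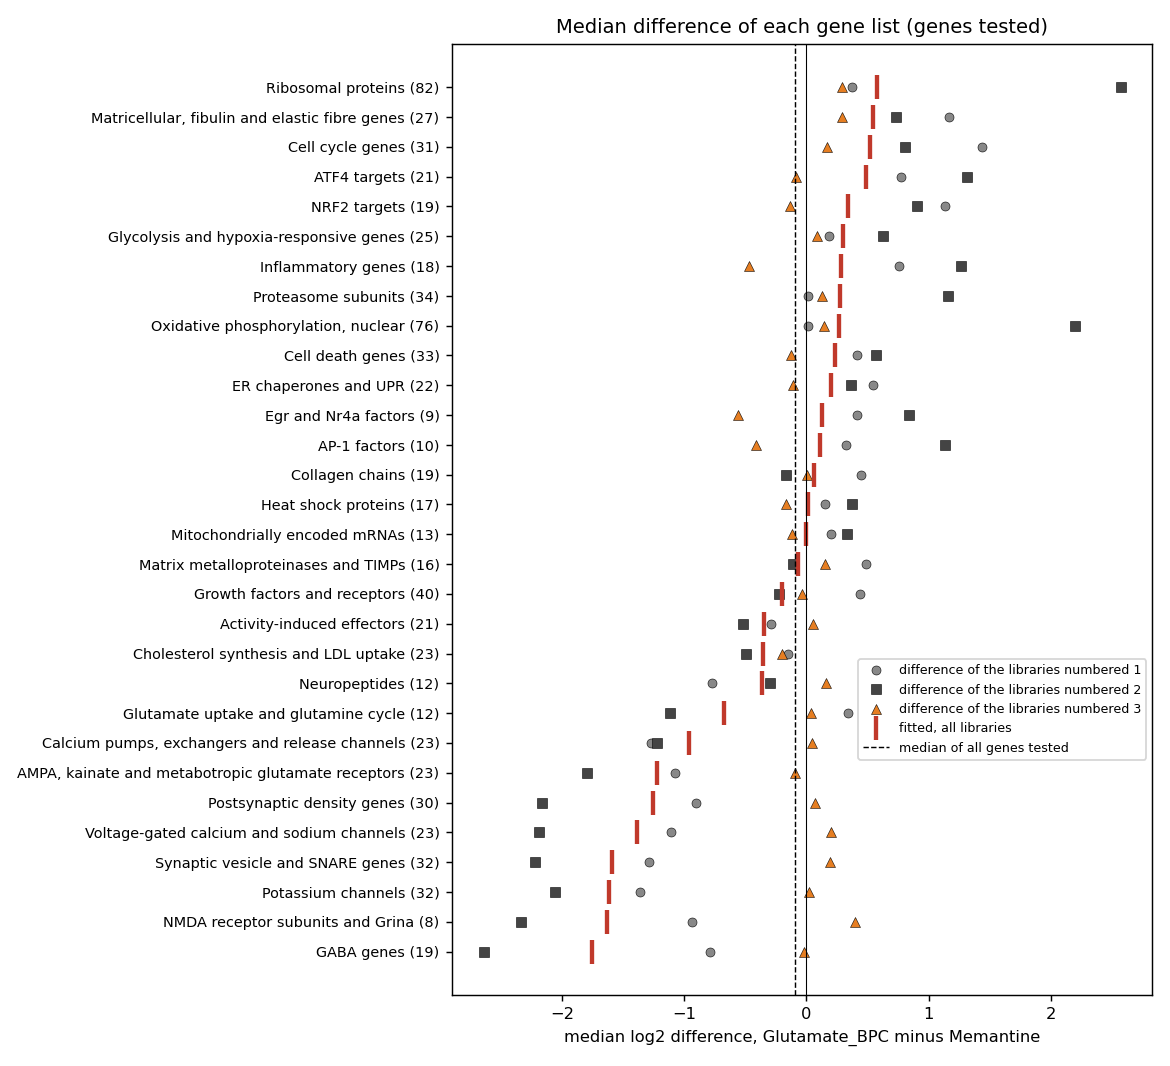
Median log2 difference (Glutamate_BPC minus Memantine) of 30 gene lists, with the number of genes tested in brackets, for the fit over all libraries and for each pair of libraries with the same number. Synaptic and channel lists lay at -0.96 to -1.75 in the fit and at -0.10 to 0.39 for the libraries numbered 3, while ribosomal proteins lay at 0.58.

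Activity-dependent transcription factors differed in direction from gene to gene. Fos was at 38.7, 31.6 and 52.8 CPM against 47.2, 19.7 and 41.0 CPM (0.19, SE 0.42). Junb was at 35.2, 37.9 and 26.6 CPM against 9.56, 6.11 and 25.9 CPM, with Memantine 3 next to Glutamate_BPC 3. With the block 1 AP-1 factor met the looser criterion as higher and 1 as lower, against 6.20% and 9.72% of all genes. Without the block none of 10 AP-1 factors met the criterion, whereas 1 of 9 Egr and Nr4a factors did. This was Nr4a1, an orphan nuclear receptor, at 36.0, 41.8 and 8.89 CPM against 7.73, 4.78 and 16.2 CPM (1.59, SE 0.62). Npas4, a neuron-specific activity factor, had too few counts to be tested, with at most 0.0576 CPM in Glutamate_BPC and 0.430 CPM in Memantine.

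Of 21 activity-induced effector genes, 4 met the looser criterion as lower and 1, Ccn1, as higher. With the block 5 met it as lower and 3 as higher, against 9.72% and 6.20% of all genes. Plk2, a kinase that acts at synapses, was at 13.7, 12.2 and 6.73 CPM against 35.0, 91.6 and 9.41 CPM (-2.06, SE 0.63). Nptx1, a pentraxin that gathers AMPA receptors, stood at -2.67 (SE 1.02) and Ptgs2, which makes prostaglandins, at -2.89 (SE 1.19). Arc was at 2.35, 3.17 and 1.95 CPM against 1.07, 1.61 and 4.81 CPM, and Bdnf was at 3.89, 4.78 and 1.84 CPM against 4.40, 3.78 and 1.44 CPM. The ranges of Arc and Bdnf overlapped, and their log2 fold changes of -0.0047 and 0.14 were smaller than their SE.

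Stress genes had positive medians with few genes at the looser criterion. Targets of ATF4, the factor of the integrated stress response, stood at a median of 0.49 with 18 of 21 above 0. The 1 gene that met the criterion was Shmt2, a mitochondrial serine enzyme, at 174, 184 and 164 CPM against 95, 59.7 and 146 CPM (0.80, SE 0.33). Ddit3, a stress-induced transcription factor, was at 113, 61.4 and 74.5 CPM against 178, 14.4 and 79.0 CPM, with Memantine 1 the highest and Memantine 2 the lowest of the 6. Atf3 stood at 0.45 (SE 0.51).

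Targets of NRF2, the factor of the antioxidant response, stood at 0.34 with 16 of 19 above 0, and at 0.58 without Memantine 3. The looser criterion was met by 1 of them and by 4 with the block, all higher, against 0.868% and 6.20% of all genes. Me1, which makes NADPH, was at 215, 235 and 221 CPM against 84.3, 116 and 178 CPM, with no overlap (0.83, SE 0.31). Hmox1, which degrades haem, was at 344, 559 and 181 CPM against 261, 250 and 343 CPM (0.34, SE 0.56) and overlapped. Heat shock proteins stood at 0.02 and chaperones of the endoplasmic reticulum at 0.20, with no gene at the looser criterion in the fit without a block.

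Inflammatory genes stood at 0.28, and at 0.73 without Memantine 3, with 2 of 18 higher and 1 lower at the looser criterion. Over all genes 0.868% were higher and 7.21% lower at it, and 6.20% and 9.72% with the block. The count of lower inflammatory genes was near the share without the block. The chemokine Ccl2 was at 49.4, 58.5 and 12 CPM against 3.01, 1.67 and 9.27 CPM, without overlap (3.10, SE 1.13). Cxcl1, a chemokine for neutrophils, was at 1.45, 3.40 and 0.108 CPM against 0, 0.389 and 0.287 CPM. Among cell death genes, Casp4, an inflammatory caspase, was at 96.3, 92.4 and 71.4 CPM against 37.8, 31.7 and 73.9 CPM (0.86, SE 0.33), and it was the 1 of 33 that met the criterion. With the block 4 higher genes and 1 lower gene did, and 2 were called higher without Memantine 3. Like the microglia markers, Ccl2 and Casp4 were highest within the Memantine group in Memantine 3, and the part of those cells was not tested.

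Cell cycle genes had 24 of 31 positive fold changes (median 0.52). The looser criterion was met by 3, all higher, and by 13 with the block, and 6 were called higher without Memantine 3. Plk1, a mitotic kinase, was at 18.8, 15.4 and 15 CPM against 3.65, 6.95 and 12.6 CPM, with no overlap (1.08, SE 0.41). Cdc20, an activator of the anaphase-promoting complex, was at 59.5, 39.4 and 60.0 CPM against 15.6, 10.3 and 46.0 CPM. Ccna2, a cyclin, stood at 0.73 (SE 0.34).

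Ribosomal protein genes had 82 of 82 positive fold changes at a median of 0.58, and 66 were higher in all 3 pairs. None met the looser criterion without the block and 18 did with it, where the median was 1.07. Rps27l was at 331, 229 and 305 CPM against 81.0, 30.8 and 229 CPM. Rpl3 was at 1500, 1275 and 1562 CPM against 879, 499.9 and 1322 CPM. The median difference was 0.38, 2.57 and 0.29 in the pairs numbered 1, 2 and 3, so the pair that holds Memantine 2 gave most of it. Memantine 2 also had the lowest share of ribosomal RNA of the 6 libraries. With that share as a covariate the list's median was 0.13, with the block and the covariate it was 0.60, and without Memantine 2 it was 0.10. Nuclear genes of oxidative phosphorylation stood at 0.27 and proteasome subunits at 0.28, and both medians turned below 0 without Memantine 2 and with the rRNA share as a covariate. Mitochondrially encoded mRNAs stood at -0.01.

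Among cholesterol synthesis and LDL uptake genes, 17 of 23 fold changes were below 0 (median -0.36), and 3 lower genes met the looser criterion, which 7.21% of all genes met as lower. With the block 5 did, and none was called without Memantine 3. Hmgcs1, which makes the substrate of the rate-limiting step, was at 280, 252 and 278 CPM against 685, 593 and 394 CPM (-1.04, SE 0.33), with no overlap. Srebf2, the transcription factor of the pathway, stood at -0.78 (SE 0.35). The medians of the 3 pairs were -0.15, -0.50 and -0.20, so this list was below 0 in each pair.

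Growth factor genes were mixed, with 3 higher and 3 lower of 40 at the looser criterion. Over all genes 0.868% were higher and 7.21% lower at it, and the count of lower growth factor genes was near that share. Tgfb2, a TGF-beta ligand, was at 39.8, 36.7 and 38.8 CPM against 188, 105 and 59.4 CPM, with no overlap (-1.61, SE 0.51). Id1, a target of BMP signalling, was at 39.2, 43.8 and 56.8 CPM against 8.81, 5.0 and 38.2 CPM (1.43, SE 0.58), also without overlap. Met, the receptor of hepatocyte growth factor, stood at -3.53 (SE 1.07) and Erbb4, a neuregulin receptor, at -2.61 (SE 0.93), with Memantine 2 at 135 and 23.2 CPM far above the other libraries. The 25 glycolysis and hypoxia genes stood at 0.30, at 0.58 without Memantine 3 and at 0.13 without Glutamate_BPC 2. Of these, Pgk1, a glycolytic kinase, met the criterion as higher (0.86, SE 0.37) and Slc2a3, the neuronal glucose transporter, as lower (-2.09, SE 0.63). With the block 4 of these genes met it as higher and 3 as lower, against 6.20% and 9.72% of all genes. Neuropeptide genes stood at -0.37, and 1 of 12 met the criterion as lower, near the share over all genes. It was Chgb, a granin of secretory granules, at -1.48 (SE 0.49).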

How the data were processed

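RNA was extracted from cortical neuroglial cultures and sequenced as mRNA libraries. Per the study's methods, the authors trimmed reads with Trimmomatic and Cutadapt and quantified them with Salmon against Ensembl 106 transcripts (rn6) with the genome as decoy. Transcripts were summed to genes with tximport, and STAR is also named in the submitters' processing notes. The values deposited by the authors are expected counts, without scaling between libraries. The paper and the labels name different library kits and sequencers, and neither states the strand used in counting, so overlapping genes can share counts.

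Counts were rounded to whole numbers, although the design had been written for counts, and tested with edgeR 4.0.16 in R 4.3.3. A model with 1 mean for each of 6 groups was fitted to all 18 libraries. Genes passed filterByExpr (minimum count 10, minimum total 15), which kept 14398 of 31463 rows. TMM factors, the two-sided quasi-likelihood test and Benjamini-Hochberg adjustment at 0.05 were used, and log2 CPM had a prior count of 2. Precision for single genes is limited by 3 libraries per group and by the totals given in the report. The study's likelihood-ratio test and DESeq2 1.42.0 were alternatives, with other scaling factors, filters, covariates and left-out libraries. The fits were checked on simulated data that held no replicate effect and no outlying library. The check therefore does not cover these features of the libraries.

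Deviations from group means of libraries with the same number correlated at 0.43, 0.69 and 0.41 across genes, which met the rule for pairing (each above 0.1). Among unlike numbers, Glutamate_BPC 3 with Memantine 1 reached 0.36, and the rest were negative. For Glutamate_BPC 3 the numbers 1 and 3 were thus hardly told apart. The pairing comes from the data and the shared number. The study's supplement names day as a batch covariate for a plot of counts, and batch-corrected counts for a plot that includes Memantine, without saying which libraries shared a day. No 2 libraries looked like repeat deposits of 1 library.

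Genes were named by rule. The rule takes the 10 higher and 10 lower genes with the smallest p, mean log2 CPM no lower than 1, and ranges without overlap, the 5 and 5 with the smallest p in the paired fit, 13 fixed genes, and up to 4 genes per list. Some genes that the rule names are not reported here. Adra1d, Hk3, Tyrobp, Trem2 and the genes of the closing section were chosen after their values were seen. Members, 30 gene lists and 7 marker lists were chosen with earlier results of these data known. Names and promoters are from RefSeq (GRCr8), a build other than that of the counts.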

Additional observations from a re-analysis of the deposited data

How the results depend on the processing

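Genes called at an adjusted p below 0.05 numbered 0 in the edgeR quasi-likelihood test, also with the replicate block, other scaling factors, no filter, rRNA rows removed and 6 libraries only. The likelihood-ratio test called 5, DESeq2 14, the rRNA share as a covariate 3 (Adamtsl3, Ccn2 and Fbln5, named after their values were seen), and block and covariate together 10. Leaving out 1 library at a time gave 0 to 399 calls, the 399 without Memantine 3, and the block without Memantine 3, chosen after seeing the data, gave 2024. Genes at the looser criterion numbered 1163 in the report, 577 with 6 libraries only, 2292 with the replicate block, 2071 with the covariate, 2722 with both, 511 to 2986 with 1 library left out and 4663 with the block without Memantine 3. Of these, 10.7% were higher in the report, 38.9% with the replicate block, 42.3% with the block on 6 libraries, 28.5% with the covariate, 39.9% with block and covariate, 41.2% without Memantine 3 and 52.4% with the block as well. Genes without overlap numbered 731, and 1311 to 5111 with 1 library left out.

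Without 1 library, list medians moved to 1.26 for matricellular genes (Memantine 3), to 0.26 for metalloproteinases (Memantine 2) and to between 0.40 and 1.27 for fibroblast and mural markers. The lists of glutamate receptors, GABA, synapse, channel and calcium genes kept a negative median in all 18 alternatives. Without Memantine 2 it shrank to -0.16 for GABA genes and to between -0.44 and -1.01 for the others. The median of the NMDA receptor list was -0.76 with 6 libraries only and -0.17 with the block on 6 libraries. The sign turned for Arc, at 0.01 with DESeq2 and with its size factors, 0.05 with upper-quartile factors, 0.15 with the replicate block, 0.25 with the block on 6 libraries, 0.53 with the covariate, 0.45 with both, -0.36 to 0.91 with 1 library left out and 1.04 with the block without Memantine 3. It turned for Ddit3, at 0.01 with upper-quartile factors, 0.38 with the block, 0.39 with the block on 6 libraries, 0.16 with block and covariate, -0.63 to 0.83 with 1 library left out and 0.68 with the block without Memantine 3. It also turned for Fos, at -0.06 with block and covariate. With 1 library left out, the range was -0.10 to 0.44 for Fos (lowest without Memantine 2, and -0.03 without Glutamate_BPC 3), -0.18 to 0.44 for Bdnf (lowest without Memantine 3, and -0.15 without Glutamate_BPC 2), -0.12 to 0.67 for Hmox1 (lowest without Glutamate_BPC 2) and -1.89 to 0.13 for Snap25 (highest without Memantine 2). The cause was not tested. Calls numbered 0 with and without the block when all libraries were kept and no covariate was used. The block raised them from 3 to 10 with the covariate and from 399 to 2024 without Memantine 3. With 3 libraries per group, genes at a few CPM have wide errors.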

Other observations

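Groups of genes outside the lists above were examined after their first members had been seen, so they are a description and support nothing. Over all genes, 0.868% were higher and 7.21% lower at the looser criterion, and 6.20% higher with the block. Without Memantine 3, 0.601% were called higher and 2.12% lower. Axon guidance receptors and ligands had 32 of 36 fold changes below 0, at a median of -1.49, and 18 met the looser criterion, all lower in Glutamate_BPC. Without Memantine 3, 7 of them were called lower by the edgeR quasi-likelihood test. The medians of the pairs numbered 1, 2 and 3 were -0.89, -2.16 and 0.11. Plxna4, a semaphorin receptor, stood at -2.18 (SE 0.58).

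MHC class II genes, which present antigen on microglia and other phagocytes, had 7 of 7 fold changes above 0 at a median of 1.57. The pairs numbered 1, 2 and 3 gave medians of 2.25, 4.05 and 0.96. RT1-Da, a class II alpha chain, had a log2 fold change of 2.35 (SE 0.96), and its groups did not overlap. In the other genes tested the groups overlapped through Memantine 3. Cd74, for example, was at 23.5, 40.9 and 66.5 CPM against 9.88, 1.83 and 37.8 CPM. The looser criterion was met by 1 of 7 without the block and by 7 of 7 with it. Without Memantine 3, 2 were called higher. Against Glutamate, the list's median was 1.73 for Glutamate_BPC and 0.20 for Memantine.

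The 20 tested genes of a list of YAP and TEAD targets, Ccn2 and Ccn1 included, were divided, with 12 above and 8 below 0 at a median of 0.12. The looser criterion was met by 2 higher and 2 lower genes. Amotl2, another such target, stood at -0.60 (SE 1.02) and Axl at 0.20 (SE 0.53).

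Adra1d, an alpha-1 adrenergic receptor, and Hk3, a hexokinase of myeloid cells, were called by the likelihood-ratio test at low level. Adra1d was at 1.18, 3.63 and 1.19 CPM in Glutamate_BPC and at 0.107, 0.222 and 0.0719 CPM in Memantine. Hk3 was at 1.27, 3.00 and 3.47 CPM against 0, 0.167 and 0.216 CPM.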
